A study of Mus musculus with 2 samples.

Results

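In the deposited gene table, 50 of 19202 genes carried the Gene Ontology term DNA integration, and the 38 of them with at least 10 reads summed over both libraries are described here. That minimum used measured values, so the members were chosen by their annotation and selected on their summed read count, while the difference between the genotypes played no part in the rule. Among the 38 genes, 27 have predicted names of the Gm series, 16 belong to TEC, the GENCODE class for loci whose transcript still awaits experimental testing, and 8 are annotated as protein-coding. The label of predicted genes therefore fits most of the set, with 11 genes under other names. The study compared bulk RNA-seq of embryonic day 12 mouse telencephalon between H2AZcKO embryos, a conditional knockout of the histone variant H2A.Z, and H2AZfl/fl embryos, which carry the floxed alleles, all on a C57BL/6 background. The tissue label names the telencephalon and the protocol names the cerebral cortex. Neither the Cre driver nor the deleted exons are given in the labels. The series lists 1 sample per genotype and the table holds 1 count column per genotype, although the design text speaks of triplicates, so no test between genotypes was possible and each ratio has no replicate check.

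DNA integration is the joining of a DNA copy of a mobile element into a chromosome, carried out by an integrase. Retroviruses and long terminal repeat (LTR) retrotransposons encode it in the pol gene next to reverse transcriptase, while gag encodes the particle proteins and env the envelope. The mouse genome carries many inherited copies of such elements, most of them defective, and some are transcribed as parts of long noncoding RNAs or of the transcripts of cellular genes. In the deposited table the term comes with similarity matches: the UniProt match of 33 of the 38 genes is a protein of a retroelement, and that of 5 genes (Banf1, Rlf, Senp7, Noct and Nynrin) is a cellular protein. The term thus describes what a locus resembles, and it does not show that a locus encodes a working integrase. By the Pfam family that the table names, 12 genes matched an integrase domain, 7 reverse transcriptase, 6 gag, 3 a retroviral envelope and 10 another family.

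The 2 members with the most reads, Gm42427 on chromosome 5 and Gm43305 on chromosome 14, share a run of 112 identical bases, shown here because the reads of both loci cannot be told apart within it. On GRCm38 it lies at chr5:44142549-44142660 on the plus strand in Gm42427 and at chr14:54292932-54293043 on the minus strand in Gm43305. Capitals mark its longest stretch of A and G alone, which is 15 bases long. A purine stretch of this kind stands before the 3′ LTR in retroviral genomes, as background, and 4.07% of 32851 RefSeq promoter windows of the same 112 bases also hold 15 or more purines in a row.
Gm42427 and Gm43305: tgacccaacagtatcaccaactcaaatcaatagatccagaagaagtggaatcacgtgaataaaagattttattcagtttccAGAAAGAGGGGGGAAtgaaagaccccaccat

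RefSeq (GRCm38.p6) gave promoter windows for 14 of the 38 genes, 20 windows in all. The TATA box motif TATAAA, searched on both strands, occurred in 1 of them, that of Gm43305 at chr14:54297439-54297738 on the minus strand. It is shown because Gm43305 had the lowest ratio of the 5 members with most reads. The motif, in capitals, begins 27 bases before the RefSeq start. Of 32851 RefSeq promoters of the same 300 bases, 8.32% hold TATAAA on the strand of the gene and 13.6% on either strand.
Gm43305 promoter: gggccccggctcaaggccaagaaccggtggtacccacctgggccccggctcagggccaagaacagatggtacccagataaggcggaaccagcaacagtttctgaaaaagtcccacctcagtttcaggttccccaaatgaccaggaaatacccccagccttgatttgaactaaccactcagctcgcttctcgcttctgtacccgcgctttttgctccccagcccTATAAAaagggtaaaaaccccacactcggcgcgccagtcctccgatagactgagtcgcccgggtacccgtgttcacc

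The annotated pseudogenes Gm9864 on chromosome 2 and Gm10040 on chromosome 3 share 362 identical bases, and 60 of them are printed to show how alike copies on different chromosomes can be. They lie at chr2:107599778-107599837 on the minus strand and at chr3:68733866-68733925 on the plus strand.
Gm9864 and Gm10040: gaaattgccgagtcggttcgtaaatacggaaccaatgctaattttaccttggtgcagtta

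The deposited counts summed to 8839840 reads in the H2AZcKO and 8891198 in the H2AZfl/fl library. H2afz, the targeted gene, had 1664 reads in H2AZcKO and 2605 in H2AZfl/fl, a ratio of 0.661 (95% interval of counting error 0.621 to 0.703), and Setd2, the H3K36 methyltransferase of the series title, 1160 and 1342 reads, a ratio of 0.894. Telencephalic markers were abundant in both libraries, and 9 of 11 had a ratio above 1. The 6 diencephalic and hypothalamic markers summed to 13.4 CPM (reads per 1000000, TMM-scaled) in H2AZcKO and 56.9 in H2AZfl/fl. All 6 had a ratio of at most 0.5, beside 2.84% of all genes with at least 10 reads. Nkx2-4 had 0 reads in H2AZcKO. These markers were chosen with earlier results of these data known, so their count is no independent finding. The 6 erythroid markers summed to 514 and 268 CPM, and the 7 microglial and macrophage markers to 34.2 and 22.0. Endothelial markers summed to 84.8 and 86.4 CPM and mesenchymal markers to 10.4 and 12.8. The part of these differences in the ratios of the 38 genes was not tested, and in bulk tissue fewer cells of a type and less RNA per cell cannot be told apart.

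The 38 genes took fewer reads in H2AZcKO. They summed to 10682 reads, 0.121% of that library (exact binomial interval 0.119 to 0.123), against 12687 reads, 0.143% (0.140 to 0.145), in H2AZfl/fl, and the ratio of the scaled sums was 0.871 (0.849 to 0.894). These intervals cover the error of counting alone, and without molecular identifiers several reads may stem from 1 molecule. The ratio was below 1 for 30 of the 38 genes, beside 49.0% of the 15483 genes with at least 10 reads, 53.6% of predicted Gm genes and 57.4% of TEC genes. A ratio of at most 0.5 was found for 6 members, beside 2.84% of all genes, 2.32% of genes in the members' range of counts, 11.9% of predicted Gm genes and 14.8% of TEC genes, and a ratio of at least 2 for 0 members, beside 1.96% of all genes. The share of members at or below 0.5, 15.8%, thus lay above that of all genes and close to that of TEC genes. At 1.5-fold, 10 members (26.3%) were lower in H2AZcKO, beside 6.76% of all genes, 23.7% of predicted Gm genes and 26.4% of TEC genes. The members' share at this fold was thus near that of the Gm and TEC genes. The counting interval lay wholly below 1 for 12 members, beside 10.5% of all genes, and wholly above 1 for 0, beside 11.9%. The median ratio was 0.844, or −0.22 on the log2(CPM + 1) scale, beside 1.004 and 0.01 over all genes.

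**Figure D1:**
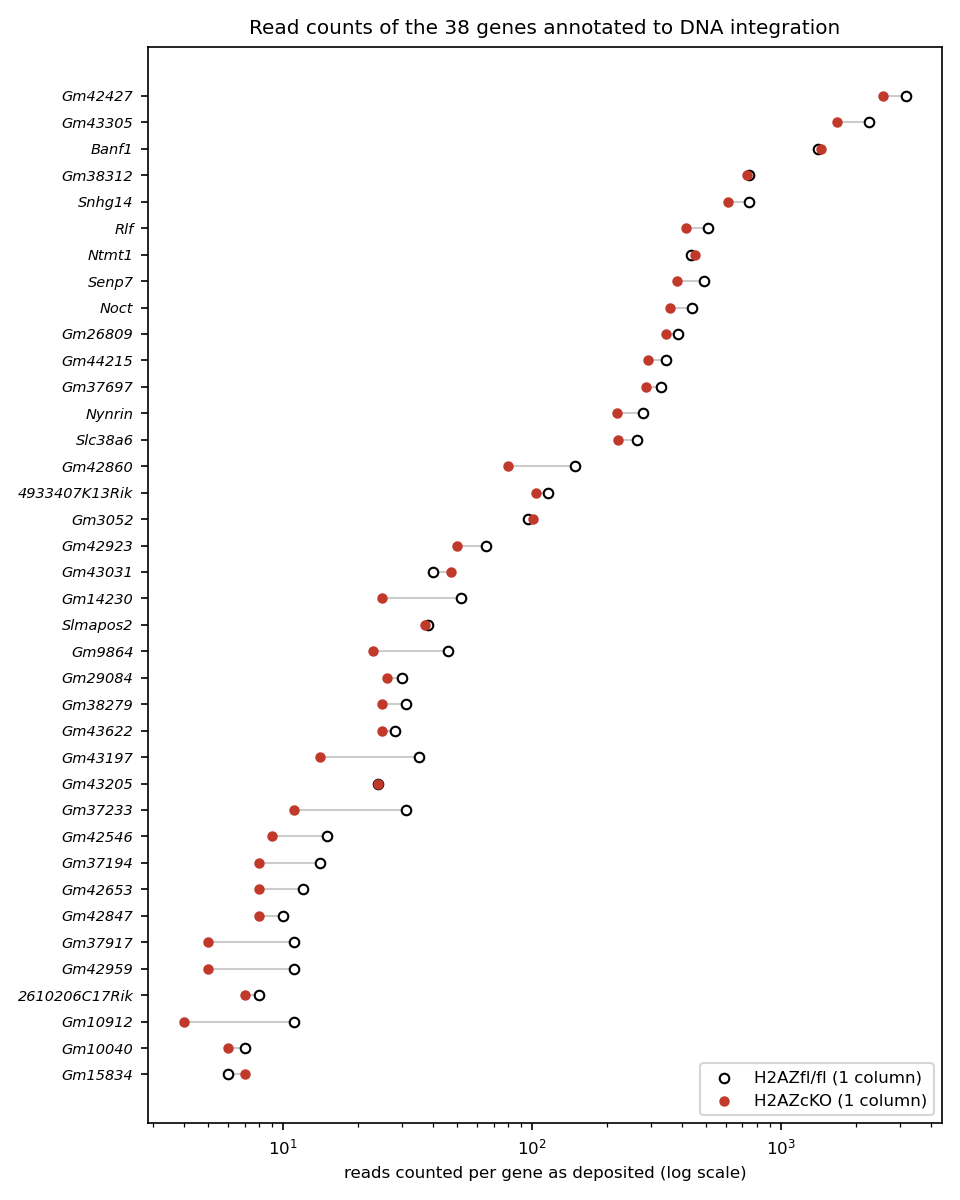
Reads per gene (log axis) in the H2AZfl/fl column (open circles) and the H2AZcKO column (filled circles), ordered by summed count, with 1 column per genotype and no error bars. Gm42427 and Gm43305 stand at the top, and the open circle lies to the right for most genes.

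**Figure D2:**
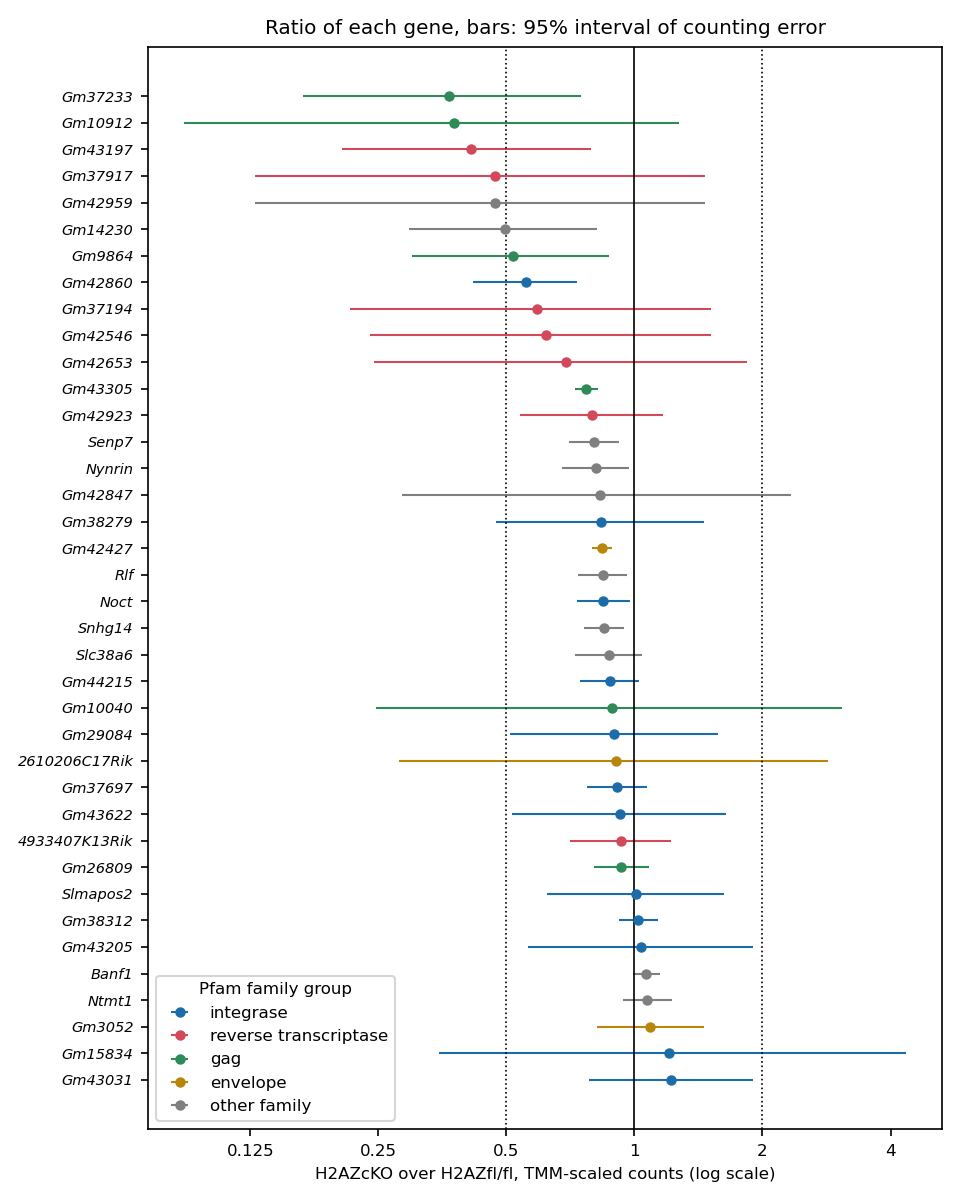
Ratio of TMM-scaled counts, H2AZcKO over H2AZfl/fl, for each gene (log axis), with bars for the 95% interval of counting error and colours for the Pfam family group. The points run from 0.367 to 1.22, dotted lines mark 0.5 and 2, and the bars widen as counts fall.

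Reads were concentrated in few loci. Gm42427 alone held 24.6% of the reads of the 38 genes and Gm43305 16.9%. Gm42427 (ENSMUSG00000105263, chr5:44137980-44143271, plus strand) is a TEC locus of 1 exon whose best Pfam family is a retroviral envelope and whose UniProt match is a Gag-Pol polyprotein. It had 2574 reads in H2AZcKO and 3175 in H2AZfl/fl, a ratio of 0.839 (0.796 to 0.884). Gm43305 (ENSMUSG00000105703, chr14:54292443-54297343, minus strand) is a processed transcript with a gag family and the same UniProt match. It had 1682 and 2258 reads, a ratio of 0.771 (0.723 to 0.821). Both loci were thus lower in H2AZcKO by more than counting error. Together they made up 0.0481% of the H2AZcKO and 0.0611% of the H2AZfl/fl library. Without them the other 36 genes summed to 6426 and 7254 reads, a ratio of 0.916 (0.886 to 0.948), and 28 of the 36 were below 1.

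Per kilobase of exon, the order of levels was led by a cellular gene. Banf1 stood at 111 CPM per kilobase (RPKM scale) in H2AZcKO and 105 in H2AZfl/fl, Gm42427 at 55.8 and 66.5, and Gm38312 at 48.2 and 47.1. Gm43305 followed at 38.5 and 49.9. The order of Gm38312 and Gm43305 thus differed between the libraries. Gm37697 (17.9 and 19.7), Ntmt1 (18.5 and 17.2), Gm26809 (13.3 and 14.3) and Gm44215 (12.3 and 14.1) came next on the same scale. Rlf, at 5.03 and 5.97, was the highest of the remaining 30 genes in each library.

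The 6 members at a ratio of at most 0.5 had few reads. Gm37233, a lincRNA with a gag family on chromosome 1 (chr1:34427002-34433264), had 11 reads in H2AZcKO and 31 in H2AZfl/fl, 2.72-fold lower, with a ratio of 0.367 (0.166 to 0.750). Gm43197, a TEC locus with a reverse transcriptase family on chromosome 6 (chr6:3336772-3339354), had 14 and 35 reads, a ratio of 0.414 (0.206 to 0.789). Gm14230, a lincRNA on chromosome 2 (chr2:156833049-156839892) whose UniProt match is a Pol fragment, had 25 and 52 reads, a ratio of 0.497 (0.296 to 0.816). For these 3 genes the interval excluded 1. Gm10912, annotated as protein-coding with a gag family, had 4 and 11 reads, and its interval reached from 0.0874 to 1.27. Gm37917 (reverse transcriptase family) and Gm42959, a TEC locus of 212 bases, each had 5 and 11 reads, with an interval of 0.128 to 1.47. At this depth no difference from 1 was detectable for these last 3. Near the threshold stood Gm9864, a gag pseudogene with 23 and 46 reads and a ratio of 0.517 (0.299 to 0.871), and Gm42860 (chr5:60803716-60807706, minus strand), an integrase locus with 80 and 149 reads and a ratio of 0.555 (0.418 to 0.734).

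Count depth and call size went together. Among the 25 members with at least 50 reads, 19 were below 1 and 1, Gm14230, was at most 0.5, and their sums gave a ratio of 0.875 (0.853 to 0.898). Among the 13 with fewer reads, 11 were below 1 and 5 at most 0.5, with sums of 116 and 195 reads and a ratio of 0.615 (0.485 to 0.778). The shares of all genes at these depths were not computed, and genes of few reads pass 0.5 more easily by counting error. Whether these counts are particular to the members was therefore not examined, and no result about the members is drawn from them.

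By the Pfam family alone, gag and reverse transcriptase loci were all below 1. The UniProt match can name another part, as it is a Pol polyprotein for the gag loci Gm37233 and Gm10912. The 6 gag loci summed to 2072 reads in H2AZcKO and 2737 in H2AZfl/fl, a ratio of 0.783 (0.739 to 0.830). Gm43305 alone gave 1682 and 2258 of these reads, so the sum mostly reflects that locus. Besides Gm10912, Gm26809 (346 and 384 reads, ratio 0.932) and Gm10040 (6 and 7 reads, ratio 0.887) had intervals that held 1. The 7 reverse transcriptase loci summed to 198 and 268 reads, a ratio of 0.764 (0.633 to 0.922). Besides Gm43197 and Gm37917 they were 4933407K13Rik (104 and 116 reads), Gm42923 (50 and 65), Gm42546 (9 and 15), Gm37194 (8 and 14) and Gm42653 (8 and 12). Only the interval of Gm43197 excluded 1 among the 7.

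Loci that match the integrase domain itself were mixed. Their sums were 1940 and 2197 reads, a ratio of 0.914 (0.859 to 0.972), with 7 of 12 below 1. The integrase loci with most reads were Gm38312 (733 and 742 reads, ratio 1.02), Noct (357 and 437, 0.845), Gm44215 (291 and 344, 0.875) and Gm37697 (288 and 328, 0.908). Gm38279 had 25 and 31 reads, Gm29084 26 and 30, and Gm43622 25 and 28, with ratios from 0.834 to 0.924. At or above 1 were also Gm43205 (24 reads in each library), Slmapos2 (37 and 38), Gm43031 (47 and 40) and Gm15834 (7 and 6). Their intervals all held 1, and with scaling by total count the ratio was 0.994 for Gm38312 and 0.979 for Slmapos2. Of the 3 envelope loci, Gm3052, a transcribed processed pseudogene, had 101 and 96 reads and a ratio of 1.09 (0.815 to 1.45), and 2610206C17Rik, an antisense transcript, had 7 and 8 reads.

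Among the 10 genes with another Pfam family, cellular genes prevailed, and they sit near the term for different reasons. Banf1, the barrier-to-autointegration factor, is a small DNA-binding protein of the nuclear envelope. It had 1453 reads in H2AZcKO and 1410 in H2AZfl/fl, a ratio of 1.07 (0.990 to 1.15). Nynrin is a cellular gene that descends in part from a retroelement, and it had 219 and 279 reads, a ratio of 0.812 (0.677 to 0.973). The zinc finger gene Rlf had 416 and 511 reads, a ratio of 0.842 (0.738 to 0.961). Senp7, a protease that removes SUMO, had 381 and 490 reads, a ratio of 0.804 (0.702 to 0.922). Each of Nynrin, Rlf and Senp7 was thus lower beyond counting error, and Banf1 was not.

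In 3 further genes of this group a retroelement protein is the UniProt match although the gene has its own function or name. Ntmt1, a methyltransferase of protein N termini, had 451 and 435 reads, a ratio of 1.07 (0.938 to 1.23). The amino acid transporter gene Slc38a6 had 222 and 264 reads, a ratio of 0.870 (0.725 to 1.04). Snhg14, the long noncoding transcript that hosts small nucleolar RNAs and runs antisense to Ube3a, had 610 and 744 reads, a ratio of 0.848 (0.761 to 0.945). Only Snhg14 among these 3 lay below 1 beyond counting error. Gm42847, a TEC locus, completed the group with 8 and 10 reads, beside Gm14230 and Gm42959. Noct, which encodes the circadian protein Nocturnin, is counted with the integrase loci because the Pfam family in the table is an integrase core. Its ratio of 0.845 had an interval of 0.733 to 0.974.

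The 8 protein-coding members summed to 3503 and 3837 reads, a ratio of 0.945 (0.902 to 0.989), with 6 below 1. The 16 TEC members summed to 4147 and 4994 reads, a ratio of 0.859 (0.824 to 0.895), with 14 below 1. The 5 lincRNAs gave a ratio of 0.862 (0.757 to 0.983) and the 3 processed transcripts 0.795 (0.753 to 0.839). The intervals of the TEC and the protein-coding sums did not overlap, but Gm42427 made up most of the TEC reads. Likewise, Gm43305 made up most of the reads of the processed transcripts. By annotation 22 of the 38 genes consist of 1 block of exon, 21 lie on the plus and 17 on the minus strand. They are spread over 13 chromosomes, with 6 on chromosome 5 and 5 each on chromosomes 1 and 2.

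**Figure D3:**
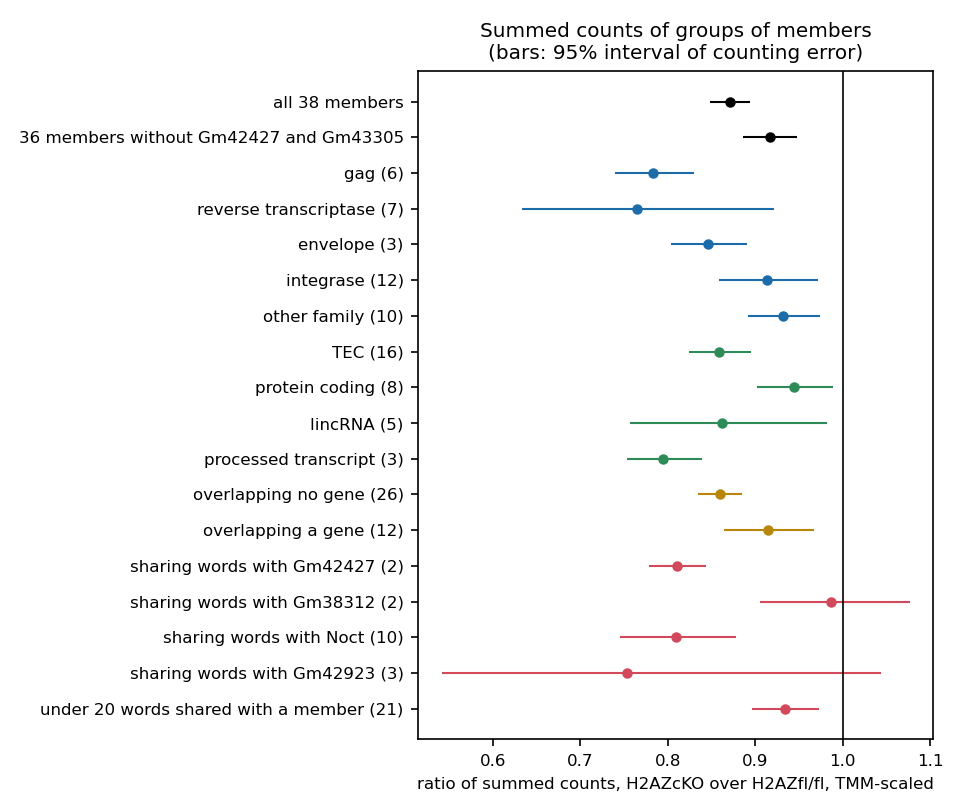
Ratio of summed TMM-scaled counts, H2AZcKO over H2AZfl/fl, for groups of members (number of genes in brackets), with bars for the 95% interval of counting error. Black is the whole set, blue the Pfam group, green the gene type (types with 3 or more genes), gold the overlap with other genes and red the sharing of 50-base words. The points of all groups lie below 1, and the intervals of the groups with Gm38312 and with Gm42923 hold 1.

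Of the 38 genes, 12 overlapped another gene of the table and 26 overlapped none. The labels do not say whether counting used strand, so reads of overlapping genes on opposite strands may not be told apart. The 26 genes that overlap no gene of the table summed to 8326 and 10022 reads, a ratio of 0.859 (0.835 to 0.885), with 22 below 1. The 12 overlapping genes summed to 2356 and 2665 reads, a ratio of 0.915 (0.865 to 0.967), with 8 below 1. Against all genes of GENCODE M21, 17 members overlap another gene, the added 5 being Senp7, Nynrin, Gm37917, 2610206C17Rik and Gm37233. Of the added 5, Senp7 and Gm37233 each overlap 1 such gene on their own strand. The 21 members that overlap no GENCODE gene summed to 7703 and 9203 reads, a ratio of 0.866 (0.840 to 0.893), with 17 below 1. Gm42427 and Gm43305 are in both of these sets without overlap and gave most of their reads, 4256 in H2AZcKO and 5433 in H2AZfl/fl. The sums of members without an overlap thus rest largely on these loci, and the part of overlap in the ratios was not tested.

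Among the overlapping genes 7 lie wholly inside a longer gene, none of them touching an annotated exon of it. On the strand of the host, Gm38312 lies in an intron of Sh3bp4, an endocytic adaptor (422 and 400 reads, ratio 1.09), and Gm43031 in one of Akap9, a scaffold protein of the Golgi and centrosome (2065 and 2366 reads, ratio 0.903). Gm38312 had more reads than its host, and per kilobase of exon it stood at 48.2 against 9.47 for Sh3bp4 in H2AZcKO and 47.1 against 8.68 in H2AZfl/fl. Gm43031 was the reverse, with 2.86 against 11.1 in H2AZcKO and 2.35 against 12.3 in H2AZfl/fl. Slmapos2 lies in 4933413J09Rik (9 and 5 reads) and Gm43197 in Gm20559 (41 and 47 reads). The ratio of Gm43197 was 0.414 while that of Gm20559 was 0.902 (0.579 to 1.40). Opposite to the host strand, Gm42923 lies in Fgf2, a growth factor gene (26 and 23 reads, ratio 1.17). Gm29084 lies in Pard3b, a polarity gene (113 and 100 reads, ratio 1.17), and Gm43622 in Cspg5, which encodes a neural proteoglycan (582 and 573 reads, ratio 1.05). All 3 hosts had ratios above 1 and their 3 inner members below 1, with every interval holding 1.

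**Figure D4:**
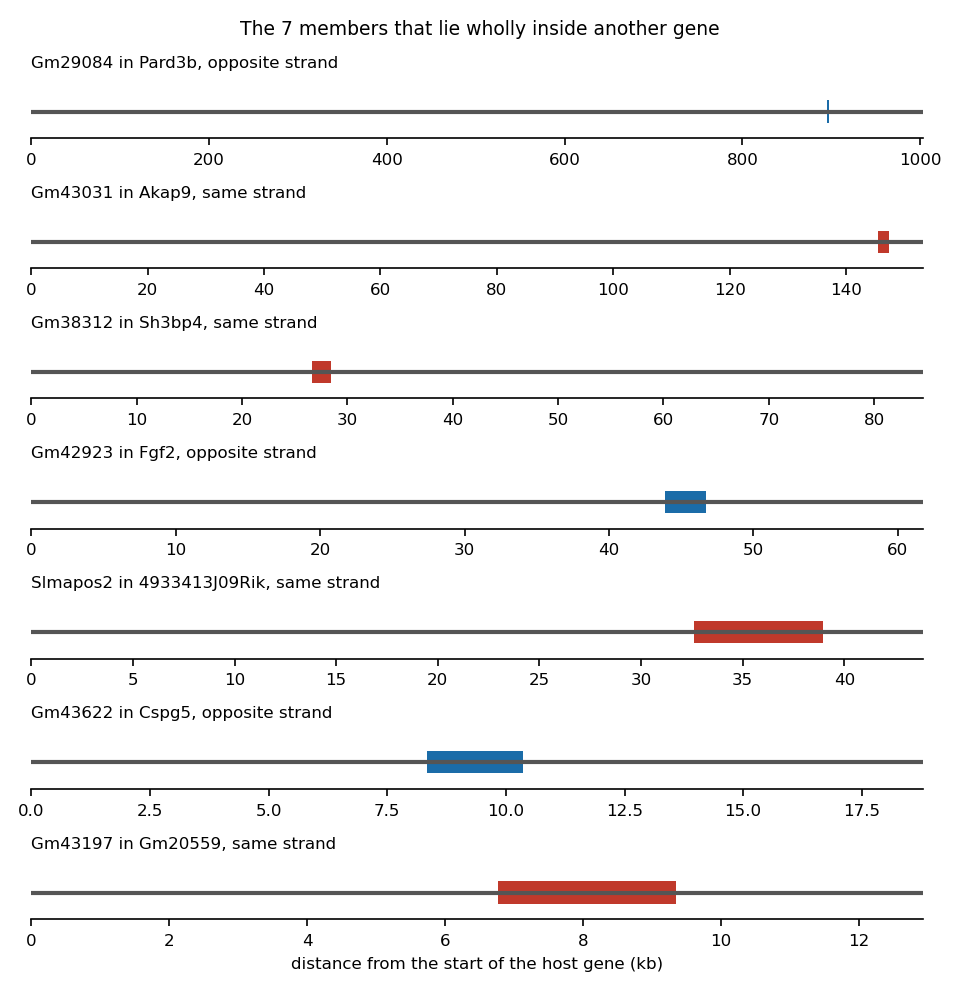
Each line is a host gene drawn from its start in the direction of transcription (kb, a separate scale per panel), and the box is the member inside it, red on the same strand and blue on the opposite strand. Gm38312 lies 26.7 kb into Sh3bp4 and Gm43031 146 kb into Akap9, near its end.

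The other 5 members overlapped a gene in part. Gm26809 covers part of Gm20186 on the opposite strand, 46.2% of its own length with 855 bases of exon on exon, and Gm20186 had 113 and 108 reads, a ratio of 1.08. Snhg14 runs over 667836 bases and overlaps Ube3a, the ubiquitin ligase gene of the Angelman region, on the opposite strand with 1803 bases of exon on exon. Ube3a had 739 and 803 reads, a ratio of 0.952 (0.860 to 1.05). Snhg14 also overlaps Gm38393 on its own strand (31 and 56 reads, ratio 0.573), and in GENCODE M21 it overlaps 213 genes, of which 208 are small nucleolar RNAs. Gm15834 overlaps Fam126b (108 and 91 reads) on the opposite strand with 212 bases of exon on exon, 4933407K13Rik overlaps Gm7153 (11 and 23 reads), and Noct overlaps Gm38357 (1 read in each library). Reads in the shared exons of Snhg14, Gm26809 and Gm15834 are thus uncertain as to their gene.

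Nearest neighbours, taken from genes with at least 10 reads, did not all share the direction of the member. Gm42428, a lincRNA 1058 bases from Gm42427 on its strand, had 39 reads in H2AZcKO and 66 in H2AZfl/fl, a ratio of 0.611 (0.401 to 0.922), while Tapt1, 31882 bases to the other side, had 330 and 304 reads, a ratio of 1.12. Gm43305 lies between Abhd4 (452 and 513 reads, ratio 0.912) and Oxa1l (1069 and 1042 reads, ratio 1.06), and both of their intervals held 1. The members Gm3052 and Gm37233 lie 9015 bases apart on the same strand of chromosome 1, with ratios of 1.09 and 0.367 whose intervals did not overlap. On the far side of Gm37233, Ccdc115 had 372 and 380 reads, a ratio of 1.01. Gm14230 starts 114 bases from Tgif2, a homeobox repressor gene on the opposite strand with 56 and 63 reads and a ratio of 0.920 (0.630 to 1.34). Gm42860 is remote from other genes with at least 10 reads. The nearest of these is Gm43041, a TEC locus 847575 bases away with 22 and 48 reads and a ratio of 0.474 (0.273 to 0.801).

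Sequence shared between loci limits how far a read names its gene. Over all GENCODE M21 transcripts, the share of a member's 50-base words that also occur in a gene not overlapping it was 94.9% for Gm29084, 83.0% for Gm42860, 81.4% for Gm10040, 78.8% for Gm9864 and 73.3% for Gm38279. It was 48.8% for Gm42427 and 17.8% for Gm43305. For 9 members no word was shared: Rlf, Ntmt1, Nynrin, 4933407K13Rik, Gm43031, Gm14230, Gm43197, Gm37194 and 2610206C17Rik. These 9 summed to 1291 and 1490 reads, a ratio of 0.896 (0.831 to 0.966), with 7 below 1. The 12 members with at least 40% of words shared summed to 3077 and 3859 reads, a ratio of 0.825 (0.786 to 0.865), with 12 below 1. The protein-coding genes Rlf (416 and 511 reads), Ntmt1 (451 and 435) and Nynrin (219 and 279) gave most reads of the 9. Gm42427 (2574 and 3175 reads) gave most reads of the 12. The part of shared words in the ratios was not tested. The labels do not say how reads with several matches were counted, and copies outside annotated transcripts were not analysed here.

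Words shared among members joined 17 of them into 4 groups at a minimum of 20 shared words. The largest held Noct, Gm44215, Slc38a6, Gm42860, Gm9864, Gm29084, Gm38279, Gm37917, Gm42959 and Gm10040, which summed to 1040 and 1330 reads, a ratio of 0.809 (0.745 to 0.878), with 10 of 10 below 1. The group is chained by pairs, and not every pair in it shares words: Gm37917 shared them with Gm42860 and Noct, and Gm42959 with Gm9864 and Noct. Of the words of Noct 34.2% and of Slc38a6 35.5% occur in another gene, so reads within shared words may stem from more than 1 locus. The 10 ratios are in that part not independent. Whether reads outside these words match copies that are not annotated was not examined. In Noct the shared words lay in 2 of its 4 transcripts, with 3083 of them in the 5′ untranslated part of the one of 9797 bases. In Slc38a6 they lay in 3 of 8 transcripts, up to 2515 in the one of 3927 bases, nearly all in the 3′ untranslated part. The longest run that Gm42860 shared with Slc38a6 was 459 bases, in reverse orientation, and with Noct 303 bases, in the same orientation. Its longest runs with other genes were not searched. Gm38312 and Gm37697, which share a run of 98 bases, summed to 1021 and 1070 reads, a ratio of 0.987 (0.905 to 1.08). Gm42923, Gm42546 and Gm42653 summed to 67 and 92 reads, a ratio of 0.753 (0.542 to 1.04). The 21 genes outside these groups summed to 4298 and 4762 reads, a ratio of 0.934 (0.896 to 0.973), with 14 below 1.

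Lists of related genes are given beside the members, and the difference in medians was not tested. The list of genes derived from retroelements or transposons includes the member Nynrin. It also holds Csrp1 (360 and 319 reads, ratio 1.17), for which such a descent is not established. Of the listed genes, 33 had at least 10 reads, with 20 below 1 and a median log2 ratio of −0.07. Among them Arc, a synaptic gene descended from gag, was higher in H2AZcKO (97 and 51 reads, ratio 1.97, 1.39 to 2.82), and Rtl9 had 14 and 6 reads, Moap1 3 and 8, and Ldoc1 5 and 10. Highest in level were Rtl8c, at 67.8 and 83.2 CPM per kilobase, and Zcchc12, at 41.5 and 40.6. Cellular cofactors of retroviral integration, which include the member Banf1, were 12 in number, with 6 below 1 and a median log2 ratio of 0.00. Psip1, the chromatin tether of lentiviral integrase, had 3937 and 3829 reads, a ratio of 1.06 (1.02 to 1.11). The pore genes Nup153 (ratio 0.847, 0.769 to 0.933) and Ranbp2 (0.879, 0.791 to 0.978) were lower, Lemd3 stood at 0.848 and Hmga1 at 1.11.

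Genes that silence retroelements were spread around 1. Of 29 with at least 10 reads, 14 were below 1, with a median log2 ratio of 0.03. Trim28, the corepressor that KRAB zinc finger proteins recruit, had 6662 and 6485 reads, a ratio of 1.06 (1.03 to 1.10), and Ehmt2, an H3K9 methyltransferase, 3497 and 3634 reads, a ratio of 0.996. Dnmt3a, a DNA methyltransferase, had 1205 and 1566 reads, a ratio of 0.796 (0.738 to 0.859). Zfp932 stood at 0.785 (0.620 to 0.993). Zfp809, a zinc finger protein that recognises retroviral DNA, had 23 and 35 reads and Apobec3, a cytidine deaminase that restricts retroviruses, 57 and 79, and both intervals held 1.

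In the authors' deposited table, 9 of the 38 genes had an adjusted p below 0.05 and a lower value in H2AZcKO, beside 7.40% of all genes, and 0 had one with a higher value, beside 4.43%. The authors' deposited table marked 3 members as significant and lower, Gm14230, Gm43197 and Gm37233, beside 0.827% of all genes. Its adjusted p for them was 0.0250 for Gm14230, 0.0288 for Gm43197 and 0.0222 for Gm37233 in the authors' deposited table. For Gm43305 the authors' deposited table gave an adjusted p of 5.75e-17 with a log2 fold change of −0.42, and for Gm42427 2.17e-12 with −0.29. These values compare 1 column with 1 column by a test that the table does not name, and they do not measure the spread between embryos.

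At the edge of the count rule, Gm10040 (6 and 7 reads) and Gm15834 (7 and 6) were the lowest members with 13 reads each. Just outside it stood Gm15287 (5 and 4 reads) and Gm37758 (2 and 7), with 9 each. In all, 12 genes with the term fell under the minimum.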

How the data were processed

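Per the labels' protocols, Trizol RNA went into Illumina TruSeq RNA libraries. HTSeq 0.6.0, TopHat2 2.0.12, Bowtie2 2.2.3 and mm9 are named in the submitters' processing notes, without role or order. The positions in the table are those of GRCm38, identical to GENCODE M21 for 34 of the 38 genes. The deposited counts are whole reads per gene, and the column headed WT per the file headers was taken as H2AZfl/fl. The CPM values deposited by the authors equal counts over 8842436 and 8894180 reads, with 100% of values whole within 0.01 read and a count of 0 written as 0.5 read. The authors' fold ratio and log2 fold change derive from these CPM values, and the deposited p-values come from a test not named. The deposited scores of the sequence matches were not used as measurements.

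Counts were scaled with TMM factors of 0.986 and 1.01 (edgeR 4.0.16, R 4.3.3). Ratios are plain ratios of scaled counts with an exact Clopper-Pearson interval at 95%, and log2 ratios use a pseudocount of 1 CPM. A count of 0 allows up to 3 reads, or 0.339 and 0.337 CPM. With 1 column per genotype no test was made. A call was a ratio of at least 2 or at most 0.5. The ratio and interval were tested on simulated data. Levels per kilobase use the exon length of GENCODE M21. Words of 50 bases, a length chosen because the read length is not given, were searched on both strands. Alternatives were total counts, DESeq2 1.42.0 size factors, deposited CPM, and other folds, minimums, pseudocounts and overlap rules. Every member is named, with overlapping genes, the nearest genes of members described in full, and in each related list the 4 largest log2 ratios and the 2 highest levels. The members and lists were chosen with earlier results of these data known.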

Additional observations from a re-analysis of the deposited data

How the results depend on the processing

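With 1 column per genotype, stability could be examined only against processing choices. Other scalings multiply the ratios of all members with reads in both libraries by 1 common factor and so say little of their stability: under total counts, DESeq2 size factors and the deposited CPM, 32, 31 and 32 of 38 members were below 1, beside 30 with TMM. Gm38312 and Slmapos2 changed sides under total counts. The count of 6 members past 2-fold became 10 at 1.5-fold, 0 at 4-fold and 12 where the whole interval had to lie beyond 1. It was 3 at a minimum of 20 reads, 1 at a minimum of 50 and 10 without a minimum, so that it rests mostly on genes of few reads. The genes added without a minimum went both ways. Gm37381 (4 and 2 reads) and Gm28893 (4 and 1) were higher in H2AZcKO, and Gm37758 (2 and 7) and Gm42566 (2 and 6) were lower. That no member had a ratio of at least 2 thus holds only with the minimum of 10 reads. The members' share of the H2AZcKO and H2AZfl/fl libraries was 0.0942% and 0.113% without overlapping members, 0.0917% and 0.107% without Gm42427, and 0.0727% and 0.0816% without Gm42427 and Gm43305, the last chosen after seeing the data, where the ratio of sums moved from 0.871 to 0.916. Overlapping members numbered 6 on the same strand only, 7 at an overlap of at least 50% of the member, and 17 against all GENCODE genes, beside 12 as reported. The ratio of sums over members that overlap no GENCODE gene, 0.866, was also added after seeing the data. The medians of the members and of the related lists moved by less than 0.1 (log2) under the alternatives run. Depth limits the 13 members under 50 reads most. No paired analysis was possible because each genotype has 1 sample.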

Other observations

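Genes with a retroelement protein or family as UniProt or Pfam match, but without the term DNA integration, were examined after the values of the members were known. They include protein-coding cellular genes with many reads, such as Atf7ip (1330 and 1657 reads, ratio 0.830) and Psmc2 (1331 and 1292 reads, ratio 1.07). Their sums therefore hold reads of cellular transcripts. Of 180 such genes with at least 10 reads, 115 had a ratio below 1, the median ratio was 0.892, and the sums of 24768 and 26984 reads gave a ratio of 0.950 (0.933 to 0.966). The 121 of them that match LINE-1 had 77 below 1, and the other 59 had 38. The 336 TEC loci without the term had 188 below 1 and a median ratio of 0.920. No test of these groups against the members was made.

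The locus of this kind with most reads did not follow Gm42427. Gm43549, a lincRNA with a retroviral envelope family, had 5427 reads in H2AZcKO and 5466 in H2AZfl/fl, a ratio of 1.03 (0.989 to 1.07), beside 0.839 (0.796 to 0.884) for Gm42427, and the intervals did not overlap. AI506816, a processed transcript with the same family, shares 140 words of 50 bases with Gm42427 and 127 with Gm43305, and it had 745 and 766 reads, a ratio of 1.01 (0.908 to 1.11).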
